A study of Mus musculus with 18 samples.

Results

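Mitochondrial ribosomal protein genes were followed through B cell differentiation in mice with and without Dnmt3a and Dnmt3b, the enzymes that place new methyl groups on DNA. They were taken as every gene of the deposited expression table whose symbol begins with Mrpl or Mrps followed by a number. This rule found 76 of 21761 genes, 47 of them named for the large subunit (Mrpl) and 29 for the small subunit (Mrps). It used no expression value, and all 76 genes passed the filter on low expression that left 11522 genes for testing.

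Expression was measured by RNA-seq in 18 libraries, 3 for each of 6 groups made by 3 cell types and 2 genotypes. Naive B cells (nB; B220+ GL7- Fas-) came from lymph nodes of mice that had not been immunized. Germinal center B cells (GCB; B220+ GL7+ Fas+ and able to bind phycoerythrin) came from lymph nodes, and bone marrow plasma cells (BMPC; CD138+) from bone marrow, both taken 30 days after immunization with phycoerythrin. Dnmt3-deficient mice were Dnmt3afl/fl Dnmt3bfl/fl and carried a Cre recombinase active in the B lineage, and Dnmt3-sufficient littermates were Dnmt3afl/fl Dnmt3bfl/fl without Cre, so the floxed alleles were present in every mouse. All were young adults of a mixed B6;129S4 background, and both sexes were used. No group carried Cre without the floxed alleles. Each GCB library pooled the cells of 2 mice, and each nB or BMPC library came from 1 mouse.

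Mitochondria make a small set of proteins of their own, which are core subunits of the respiratory chain and of ATP synthase. They do so on ribosomes whose RNAs are encoded in mitochondrial DNA, whereas all of the ribosomal proteins are encoded in the nucleus, made in the cytosol and imported. Some of these proteins descend from bacterial ribosomal proteins and others are particular to mitochondria. Germinal center B cells divide rapidly, and plasma cells secrete antibody at a high rate, so both are known for a high demand for energy and for protein synthesis.

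Values are FPKM, the reads on a gene per kilobase of its exons scaled to the total of reads counted on the genes of the table, and can therefore be compared between genes. Fold changes are differences of log2(FPKM + 1) fitted by limma, with a standard error (SE). A gene passed when its Benjamini-Hochberg adjusted p over the 11522 genes was at most 0.05 and its change was at least 1 on this scale, a 2-fold change. Reads counted on genes ranged from 6692516 to 8987922 per nB library, from 7644544 to 8903872 per GCB library and from 1355231 to 3803197 per BMPC library. Within BMPC they ranged from 2196198 to 3803197 in Dnmt3-sufficient and from 1355231 to 2265945 in Dnmt3-deficient libraries. Members were covered by a median of 411 reads in an nB library, 712 in a GCB library and 193 in a BMPC library, and a value of 0 was found for 1, 0 and 24 of 456 member values in these cell types. Of the 24 zeros, 12 fell in Dnmt3-deficient BMPC replicate 2. Markers of the sorted cells followed the labels, with the summed FPKM of 8 plasma cell genes at 19040 or more in each BMPC library and at 1608 or less elsewhere. Because the floxed exons are a small part of each gene, totals for Dnmt3a and Dnmt3b do not check the genotype, and they were at most 9.29 FPKM in any library.

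Summed over the 76 genes, the mitochondrial ribosomal protein mRNAs were lowest in nB. The sum was 3554 ± 252.5 FPKM in nB (SD, n = 6, both genotypes), 6063 ± 652.8 in GCB and 7178 ± 1660 in BMPC, or 1.71-fold and 2.02-fold of nB. The ranges of nB (3090.2 to 3775.8) and GCB (4861.7 to 6715.3) did not overlap, nor did those of nB and BMPC (4930.3 to 9464.9), whereas GCB and BMPC overlapped. The large subunit sum was 1.77-fold of nB in GCB and 2.06-fold in BMPC, and the small subunit sum 1.6-fold and 1.96-fold. Within genotypes, the BMPC sum was 2.37-fold of nB in sufficient and 1.73-fold in deficient libraries for the large subunit, and 2.35-fold and 1.56-fold for the small subunit. In these bulk samples, fewer cells of a type and less RNA per cell cannot be told apart.

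**Figure D1:**
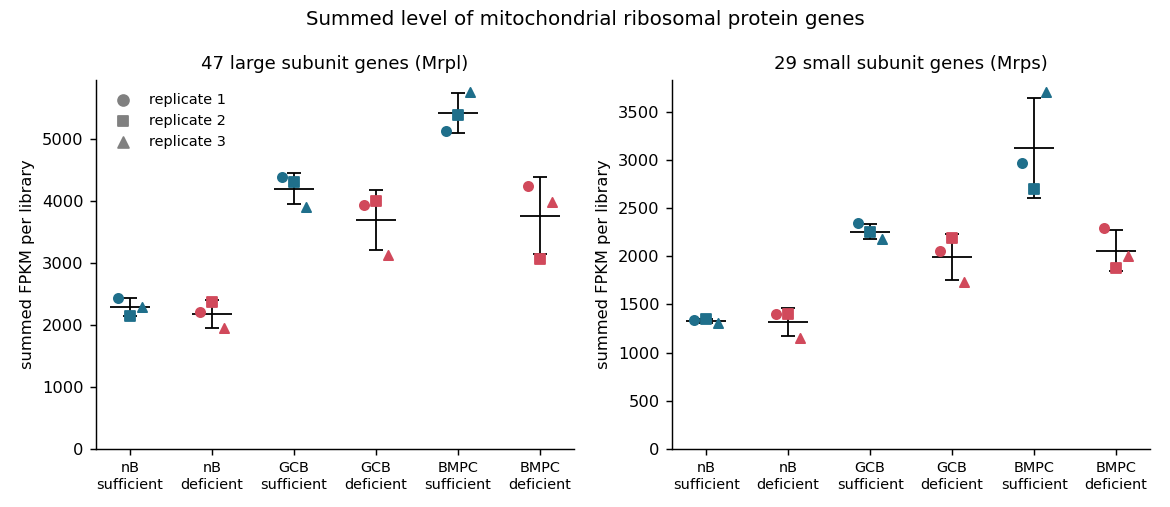
Summed FPKM per library of the 47 Mrpl genes (left) and the 29 Mrps genes (right) in each cell type and genotype; points are libraries, shaped by replicate number, and bars are the mean and SD of 3. All nB libraries lie below all GCB and BMPC libraries in both panels, and in BMPC the Dnmt3-deficient libraries lie below the sufficient ones.

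Levels of the members covered a wide range, and their order was much alike in the 3 cell types. The highest mean over groups belonged to Mrpl18, followed by Mrps21, Mrpl20, Mrps33 and Mrpl30. The lowest belonged to Mrps22, Mrps30, Mrpl3, Mrps24 and Mrps34. Mrps21 gave 5.09% of the summed level in nB, whereas Mrpl18 gave 7.80% in GCB and 7.75% in BMPC. The 10 highest members gave 35.1%, 37.5% and 39.5% of the sum in nB, GCB and BMPC. Spearman's rho between the mean levels of the 76 members was 0.9455 for nB and GCB, 0.8925 for nB and BMPC and 0.9161 for GCB and BMPC; this is a description across genes that share the same libraries. Mrps34 was the steadiest member between groups, at 0.468 ± 0.439 FPKM in nB, 0.405 ± 0.229 in GCB and 1.48 ± 2.19 in BMPC, but at these levels counts of a few reads set the values.

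In GCB the members were shifted upward as a group. Compared with nB, 15 of 76 passed as higher, against 9.47% of all genes tested, and 0 passed as lower, against 12%. Without the minimum change, 31 members were higher at the adjusted p, against 12.7% of all genes. The median member change was 0.64, whereas the median of all genes was -0.13, and 70 of 76 members had a positive change. The 6 GCB values lay above all 6 nB values for 32 members, against 13.2% of all genes, and below them for 0, against 14.4%. The summed FPKM of 7 cell cycle genes, 121 to 148 in nB and 1502 to 1729 in GCB, moved with the same comparison, and its part was not tested. The 15 that passed were Mrpl1, Mrpl12, Mrpl16, Mrpl18, Mrpl20, Mrpl27, Mrpl34, Mrpl35, Mrpl42, Mrpl51, Mrpl54, Mrps11, Mrps18a, Mrps18c and Mrps28.

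Mrpl18, whose bacterial relative binds 5S ribosomal RNA, was the member with the smallest p. It measured 186, 193 and 162 FPKM in sufficient and 152, 144 and 118 in deficient nB. In GCB it measured 542, 512 and 475 FPKM in sufficient and 460, 457 and 391 in deficient libraries. Every GCB library was above every nB library, and the change was 1.58 (SE 0.128, adjusted p = 9.09e-08). Mrps11, of the bacterial S11 family of the small subunit, measured 18.1, 22.3 and 20.6 FPKM in sufficient and 19.4, 8.70 and 26.3 in deficient nB. It rose to 66.7, 58.9 and 68.7 FPKM in sufficient and 67.3, 59.2 and 41.6 in deficient GCB, without overlap, a change of 1.65 (SE 0.282, adjusted p = 0.000284).

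Mrpl27, whose bacterial relative lies near the site of peptide bond formation, measured 59.6, 32.8 and 52.4 FPKM in sufficient and 46.6, 27.7 and 34.6 in deficient nB. It measured 116, 143 and 103 FPKM in sufficient and 121, 156 and 95.7 in deficient GCB, a change of 1.54 (SE 0.314, adjusted p = 0.00129). Mrpl51, a large subunit protein particular to mitochondria, measured 30.3, 24.0 and 24.5 FPKM in sufficient nB and 26.7, 49.6 and 26.3 in deficient nB. The corresponding GCB values were 94.4, 91.3 and 76 FPKM and 85.8, 86.3 and 58.3, a change of 1.44 (SE 0.216, adjusted p = 7.96e-05). Neither gene overlapped between the cell types, although nB deficient replicate 2 was high for Mrpl51.

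Mrps18a, Mrps18b and Mrps18c are 3 relatives of the bacterial S18 protein, and the product of Mrps18a sits in the large subunit despite its name. Mrps18a had its highest mean in GCB, with 77.0 ± 8.09 FPKM in nB, 199 ± 30.1 in GCB and 128 ± 41.2 in BMPC (SD, n = 6). It rose by 1.35 from nB to GCB (SE 0.191, adjusted p = 4.42e-05), and its change from GCB to BMPC was -0.70 (SE 0.191, adjusted p = 0.00652), short of the 2-fold minimum. Mrps18c rose in GCB by 1.25 (SE 0.185, adjusted p = 6.6e-05) and in BMPC by 1.23 over nB (adjusted p = 3.74e-05). Mrps18b rose in BMPC, by 1.17 (SE 0.21, adjusted p = 0.000206), and had a change of 0.52 in GCB (adjusted p = 0.0781). Its change from GCB to BMPC was 0.64 (adjusted p = 0.019), below 2-fold.

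The members lie on 17 chromosomes in the mm9 annotation, which held 75 of the 76, all as protein-coding genes. Among the members described, Mrpl18 (Entrez 67681) lies at chr17:13104215-13109211 and Mrps18a (Entrez 68565) at chr17:46247935-46265859. Mrps11 (Entrez 67994) is at chr7:85928005-85937875, Mrpl27 (Entrez 94064) at chr11:94515081-94521403, Mrpl51 (Entrez 66493) at chr6:125141819-125145601 and Mrpl32 at chr13:14702568-14705304. Mrps28 (Entrez 66230) spans chr3:8802146-8923918 and Mrps15 (Entrez 66407) chr4:125724169-125732776.

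Promoters of members that moved together are shown for their sequence features, from RefSeq on build GRCm38.p6, which matched 67 of the 76 members. Each printed run is the 120 bases before the annotated start, in the direction of the gene, with capitals at matches on either strand to the letters searched: GCATGCGC for NRF1, CCGGAAG for ETS factors and AAGATGGC for YY1. The E-box CACGTG was searched as well. Mrps11, Mrpl27, Mrpl51, Mrps18a and Mrpl18 were higher in GCB than nB, and Mrpl32 was lower in deficient than sufficient BMPC.
Mrps11 (chr7:78783011-78783130, plus strand): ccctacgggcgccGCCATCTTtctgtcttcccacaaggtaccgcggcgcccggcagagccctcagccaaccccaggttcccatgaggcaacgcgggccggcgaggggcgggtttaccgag
Mrpl27 (chr11:94653671-94653790, plus strand): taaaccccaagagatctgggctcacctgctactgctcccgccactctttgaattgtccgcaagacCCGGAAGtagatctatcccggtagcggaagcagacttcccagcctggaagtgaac
Mrpl51 (chr6:125192080-125192199, plus strand): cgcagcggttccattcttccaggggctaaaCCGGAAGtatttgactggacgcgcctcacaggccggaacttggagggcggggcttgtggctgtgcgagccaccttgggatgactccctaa
Mrps18a (chr17:46110884-46111003, plus strand): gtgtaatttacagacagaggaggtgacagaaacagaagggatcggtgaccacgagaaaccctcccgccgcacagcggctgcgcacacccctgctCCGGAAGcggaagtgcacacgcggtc
Mrpl18 (chr17:12916092-12916211, minus strand): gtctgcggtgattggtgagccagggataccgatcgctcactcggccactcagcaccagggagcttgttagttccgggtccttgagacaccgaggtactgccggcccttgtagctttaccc
Mrpl32 (chr13:14613038-14613157, minus strand): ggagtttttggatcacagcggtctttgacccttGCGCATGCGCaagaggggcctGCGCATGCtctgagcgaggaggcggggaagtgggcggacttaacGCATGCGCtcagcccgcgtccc
The capitals mark a YY1 match in Mrps11, an ETS match in each of Mrpl27, Mrpl51 and Mrps18a, none in Mrpl18 and several NRF1 matches in Mrpl32, the first pair of which overlaps. In the window from 250 bases before to 50 after the start, the ETS letters were held by 34.3% of the 67 member promoters, 19.8% of 9152 promoters of tested genes and 9.12% of all 27025. The YY1 letters were held by 17.9%, 5.12% and 2.88%, the NRF1 letters by 11.9%, 5.74% and 2.80%, and the E-box by 7.46%, 10.5% and 7.24%. A match is a description of letters and not a bound site. The median change from nB to GCB was 0.92 for the 12 members with the YY1 letters and 0.59 for those without. For the ETS letters it was 0.82 for the 23 members with them and 0.59 for those without. For the NRF1 letters it was 0.84 for 8 members and 0.61 for those without, and for the E-box 0.71 for 5 members and 0.64. Members with the letters thus had the higher median for each motif searched, and these differences were not tested.

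In BMPC the picture was more divided, with members that rose and members that fell. Genes of other bone marrow cells were detected beside those of plasma cells, and their part in these changes was not tested. The summed FPKM of 8 neutrophil genes was 0 in all nB and GCB libraries and 9.37 to 594.6 in BMPC, and that of 5 erythroid genes was 0.705 to 289.8 in nB and 182 to 2893 in BMPC. The sum of 6 early B genes was 181.8 to 274.6 in nB and 379.4 to 800.4 in BMPC, and that of the 7 cell cycle genes was 121 to 148 and 360.7 to 672.4. The antibodies used in the sort included CD11b and Ly6-G, which mark myeloid cells and neutrophils. Compared with nB, 25 of 76 members passed as higher, against 9.43% of all genes, and 5 as lower, against 39.3%. At the adjusted p alone 37 were higher, against 12.7%. The median member change was 0.66 and that of all genes -0.79, with 59 of 76 members above 0. The ranges over 6 libraries did not overlap for 17 members that were higher, against 6.01% of all genes, and for 1 that was lower, against 18.8%. Of the 25 that rose in BMPC, 13 also rose in GCB over nB; these comparisons share the nB libraries. The 12 that passed in BMPC alone were Mrpl13, Mrpl14, Mrpl22, Mrpl28, Mrpl33, Mrpl36, Mrpl48, Mrpl55, Mrpl57, Mrps14, Mrps18b and Mrps36, and the 2 that passed in GCB alone were Mrpl1 and Mrps18a. None of those that passed in 1 cell type alone passed between GCB and BMPC.

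Mrps28, a small subunit protein, changed most among those that rose. Its nB values were 36.4, 24.4 and 19.0 FPKM in sufficient and 38.0, 34.3 and 28.1 in deficient libraries. In BMPC it measured 209, 208 and 277 FPKM in sufficient and 186, 197 and 63.6 in deficient libraries, all above nB although deficient replicate 3 stood well below the others. The change was 2.54 over nB (SE 0.27, adjusted p = 9.25e-07), and Mrps28 was also the member that passed as higher in BMPC than in GCB, by 1.28 (adjusted p = 0.00103). That change was 1.58 in sufficient libraries (adjusted p = 0.00523) and 0.98 in deficient ones (adjusted p = 0.0581). Mrpl20, of a bacterial family that acts early in assembly of the large subunit, ranged from 72.6 to 114 FPKM in nB, from 174 to 247 in GCB and from 217 to 476 in BMPC. It changed by 1.25 in GCB (adjusted p = 0.000185) and by 1.83 in BMPC (adjusted p = 1.52e-06), with GCB and BMPC overlapping. Mrpl18 in BMPC measured 791, 687 and 721 FPKM in sufficient and 400, 268 and 474 in deficient libraries, a change of 1.72 over nB (adjusted p = 1.49e-08). Mrpl13, of the bacterial L13 family, ranged from 3.98 to 7.17 FPKM in nB, from 8.26 to 14.5 in GCB and from 15.7 to 26.9 in BMPC, with no overlap, and its change over nB was 1.78 in BMPC (SE 0.26, adjusted p = 2.68e-05).

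Mrps36 also rose in BMPC, by 1.48 (SE 0.33, adjusted p = 0.00125). It carries a ribosomal name, but its product is known as a part of the alpha-ketoglutarate dehydrogenase complex of the citric acid cycle. Its BMPC values spread from 79.5 to 436 FPKM, against 45.8 to 78.0 in nB, so that the lowest BMPC library lay just above the highest nB library. Mrps36 did not pass among deficient libraries alone (1.17, adjusted p = 0.057) or without the 2 shallowest libraries (1.00, short of 2-fold).

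Mrps15, of the bacterial S15 family, fell furthest. It measured 13.8, 18 and 11.8 FPKM in sufficient and 19.4, 25.5 and 16.5 in deficient nB. In BMPC it measured 7.36, 6.01 and 0.768 FPKM in sufficient and 0.342, 0 and 0 in deficient libraries, all below nB. The change was -2.98 against nB (SE 0.431, adjusted p = 2.43e-05) and -2.48 against GCB (adjusted p = 0.000181); fitted changes of a gene with zeros depend on the value of 1 added before the logarithm. Mrpl44, which has an RNase III-like fold, measured 20.2 to 44.6 FPKM in nB and 32.6 to 58.5 in GCB. In BMPC it measured 0, 0.160 and 20.1 FPKM in sufficient and 32.0, 0.898 and 21.2 in deficient libraries, so 3 of 6 libraries stood near 0 and the other 3 overlapped nB or came close to it. Its change was -2.43 against nB (adjusted p = 0.00836) and -3.00 against GCB (adjusted p = 0.00241), the latter -3.69 in sufficient libraries (adjusted p = 0.0109) and -2.31 in deficient ones (adjusted p = 0.0854). Mrps35 (-1.96, adjusted p = 0.0135), Mrps23 (-1.30, adjusted p = 0.0426) and Mrpl19 (-1.18, adjusted p = 0.0223) fell against nB as well, each with widely spread BMPC values. Mrps23, for example, measured 76.6, 3.20 and 38.7 FPKM in sufficient and 7.01, 11.6 and 28.4 in deficient BMPC. Its call was lost in 17 of 27 alternative fits, among them those without any single nB library, without BMPC sufficient replicate 2 (-0.68, adjusted p = 0.067) or without BMPC deficient replicate 1 or 2 (-1.09 and -1.26). The call of Mrpl19 was lost in 6 of 27 alternatives, among them those without BMPC sufficient replicate 2 (-0.99), without deficient replicate 1 (-0.80) and without the 2 shallowest libraries (-0.59). In sufficient libraries alone its change was -0.19 (adjusted p = 0.835). The call of Mrps35 was lost in 3 of 27, with -1.32 and an adjusted p of 0.248 in deficient libraries alone.

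**Figure D2:**
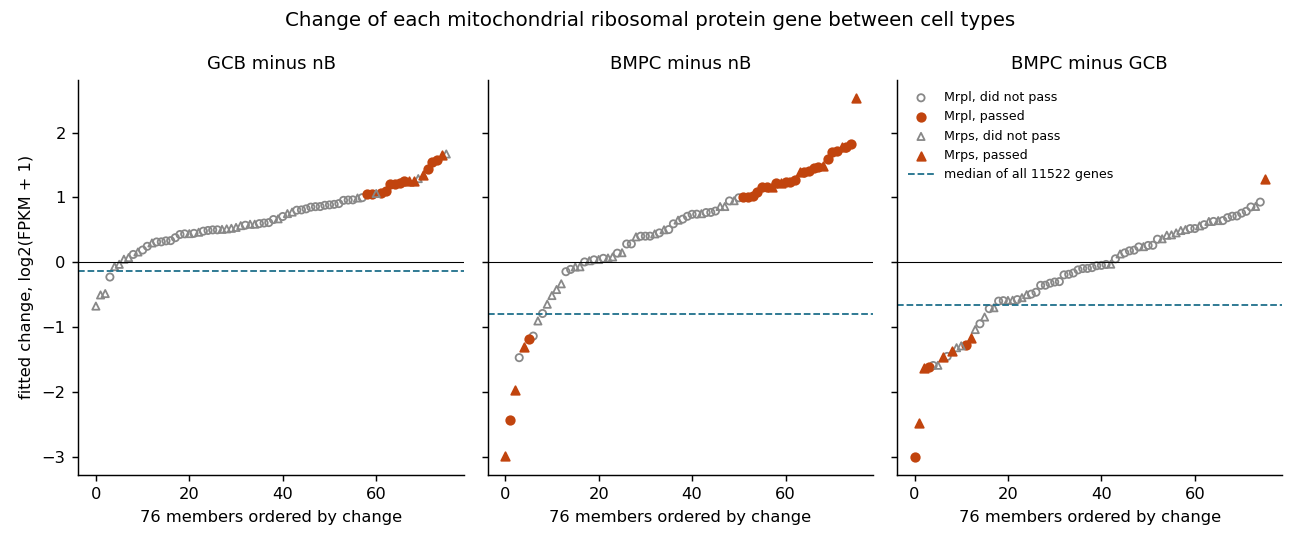
Fitted change on the log2(FPKM + 1) scale of each of the 76 members, ordered within each panel, for GCB minus nB, BMPC minus nB and BMPC minus GCB; filled symbols passed the test and the dashed line is the median of all 11522 genes. Most members lie above the dashed line in each panel, and a tail of members falls in both BMPC comparisons.

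Between BMPC and GCB, 1 member passed as higher, against 7.72% of all genes, and 8 as lower, against 33.7%. At the adjusted p alone 16 were higher, against 10.5%, and 10 lower, against 37.6%. The ranges did not overlap for Mrpl13 and Mrps14, which were higher in BMPC (2 members, against 5.13% of all genes), and for Mrpl4, Mrpl44 and Mrps7, which were lower (3 members, against 18.1%). The median member change was -0.09, and that of all genes -0.66. With libraries scaled by the median of ratios the median of all genes moved by 0.13 in this comparison, the member median became 0.13, and 4 members passed as higher and 6 as lower. Mrps7, of a bacterial family that binds the RNA of the small subunit head, fell by 1.17 from GCB to BMPC (SE 0.184, adjusted p = 7.28e-05), from 97.5 ± 12.5 to 46.3 ± 20.6 FPKM (SD, n = 6). Mrpl10, which holds the stalk of the large subunit, fell by 1.28 (adjusted p = 0.00492), Mrps31 by 1.37 (adjusted p = 0.0085), Mrps27 by 1.62 (adjusted p = 0.0196), Mrpl19 by 1.61 (adjusted p = 0.00415) and Mrps23 by 1.46 (adjusted p = 0.0287); the last call was lost in 11 of 27 alternative fits. In sufficient libraries alone Mrps7 had a change of -0.72 (adjusted p = 0.0479) and Mrps31 of -0.38 (adjusted p = 0.641), and in deficient libraries alone Mrpl10 had a change of -0.95 (adjusted p = 0.131). Without BMPC sufficient replicate 2 the change of Mrps23 was -0.84, without BMPC deficient replicate 1 it was -1.25, and without GCB sufficient replicate 1 or 2 or GCB deficient replicate 3 it was -1.40, -1.45 and -1.41, none of them passing. Without BMPC deficient replicate 1, Mrps27 had a change of -0.95, short of 2-fold, and without the 2 shallowest libraries Mrps28 had a change of 0.75.

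**Figure D3:**
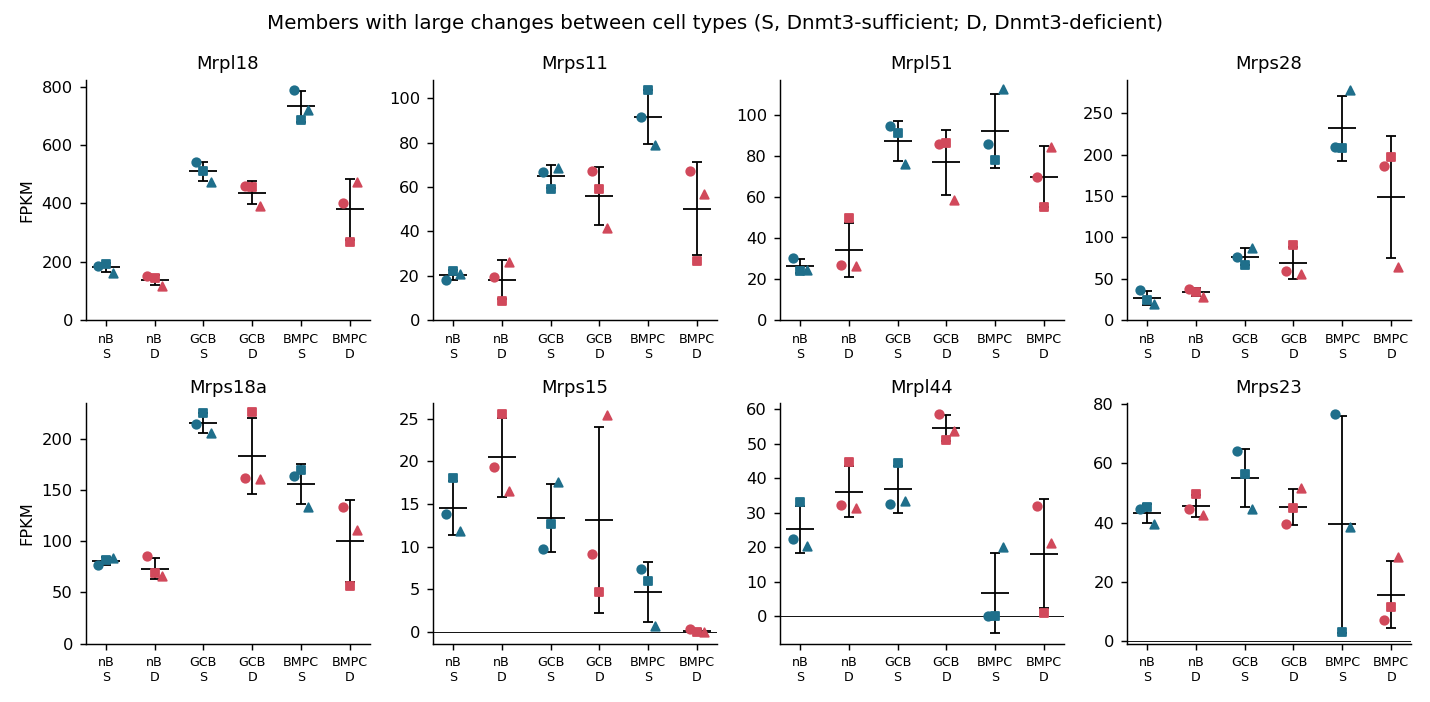
FPKM per library of 8 members with large changes between cell types, by cell type and genotype; points are libraries shaped by replicate number, horizontal bars the mean of 3 and whiskers the SD. Mrpl18, Mrps11, Mrpl51 and Mrps28 rise from nB to GCB and BMPC, Mrps18a is highest in GCB, and the BMPC values of Mrps15, Mrpl44 and Mrps23 reach 3.20 FPKM or less in at least 1 library.

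The cell-type comparisons were also made within each genotype. The median member change from nB to GCB was 0.81 in sufficient and 0.59 in deficient libraries, and from nB to BMPC it was 0.89 and 0.35. From GCB to BMPC the median was 0.27 in sufficient libraries, with 44 of 76 members above 0, and -0.23 in deficient libraries, with 30 of 76 above 0. From nB to GCB, 13 members passed as higher among sufficient libraries, against 7.22% of all genes, and 10 among deficient libraries, against 6.31%. From nB to BMPC, 32 passed as higher and 3 as lower among sufficient libraries, against 9.74% and 27.6%. Among deficient libraries 15 passed as higher and 3 as lower, against 6.85% and 30.6%. From GCB to BMPC, 3 passed as higher and 2 as lower among sufficient libraries, against 6.67% and 20.9%, and 1 and 9 among deficient libraries, against 6.14% and 26.1%. These counts were not tested against each other, but the interaction of genotype with each change was. It was passed by 0 members for GCB minus nB (0% of all genes), BMPC minus nB (0.555%) and BMPC minus GCB (0.425%). Voom called 0 in each. At an unadjusted p under 0.05 there were 0, 15 and 10 members. The share of all genes at that unadjusted p is not given here, so these counts show nothing particular to the members. Among the interactions, the smallest p belonged to Mrps21 for BMPC minus nB, with a difference of -0.84 (adjusted p = 0.151). The fit without the 2 shallowest libraries leaves 1 Dnmt3-deficient BMPC library, assumed to vary like the others. It cannot decide the interactions with BMPC, and its counts are not given.

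Genotype had no passing member in nB or GCB. In nB the member median was 0.01, 0 members passed against 0.0521% of all genes, 1 member had an unadjusted p under 0.05 (0 by voom), and the ranges of 3 and 3 libraries did not overlap for 1 member above (against 4.66%) and 4 below (against 4.17%). The member with the smallest p was Mrpl18, at -0.39. In GCB the member median was -0.21 while that of all genes was 0.00, and 11 of 76 members were above 0. The median was -0.13 for 81 cytosolic ribosomal protein genes (4 above 0) and -0.18 for 74 genes of oxidative phosphorylation (7 above 0). No gene passed in GCB (0%), 0 members had an unadjusted p under 0.05 (1 by voom, which called 0), and the ranges did not overlap for Mrpl44 and Mrps35 above (2 members, against 5.58%) and for 8 members below (against 5.05%). Without GCB deficient replicate 3, the GCB median was -0.08.

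In BMPC the summed level of the members was lower in Dnmt3-deficient than in sufficient libraries. It was 8089.9, 8076.9 and 9464.9 FPKM in the sufficient libraries and 6527.4, 4930.3 and 5979.5 in the deficient ones, which did not overlap. The ratio of the deficient to the sufficient mean was 0.680, against 0.880 in GCB and 0.964 in nB. For cytosolic ribosomal protein genes the ratio was 0.770 in BMPC and 0.916 in GCB, and for genes of oxidative phosphorylation 0.761 and 0.892. The 6 members that passed as lower (against 2.65% of all genes) were Mrps31, Mrpl50, Mrpl27, Mrpl32, Mrps16 and Mrps7, and 0 passed as higher (against 1.34%). The median member change was -0.61, against -0.05 for all genes, and 11 of 76 members were above 0. Cytosolic ribosomal protein genes had a median of -0.43 in the same comparison, with 0 of 81 above 0 and 0 passed. Genes of oxidative phosphorylation had a median of -0.45, with 7 of 74 above 0 and 3 passed as lower. At the adjusted p alone, 8 of 76 members and 18 of 81 cytosolic ribosomal protein genes were lower. So were 6 of 74 genes of oxidative phosphorylation and 354 of all 11522 genes. The 3 deficient values lay below the 3 sufficient values for 24 members, against 7.31%, and above them for 0, against 3.02%. The size of the difference depended on scaling. With libraries scaled by the median of ratios, the member median was -0.43, that of all genes 0, and 4 members passed as lower. The mean of the summed level was then 8797 in sufficient and 6762 in deficient BMPC.

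Mrps31, a small subunit protein particular to mitochondria, measured 7.97, 4.29 and 11.1 FPKM in sufficient and 4.25, 0.223 and 0 in deficient BMPC. The highest deficient value thus lay just under the lowest sufficient one, and the change was -2.16 (SE 0.55, adjusted p = 0.035). Mrpl50, a large subunit protein, measured 69.7, 96.1 and 105 FPKM in sufficient and 28.0, 7.37 and 46.4 in deficient BMPC, a change of -1.99 (SE 0.498, adjusted p = 0.0323). Mrpl27 measured 219, 196 and 161 FPKM in sufficient and 117, 44.5 and 21.8 in deficient BMPC, a change of -1.95 (SE 0.444, adjusted p = 0.0202). None of the 3 genes overlapped between genotypes in BMPC. Mrps31 did not pass without BMPC sufficient replicate 1 (-2.10) or 3 (-1.89) or deficient replicate 2 (-1.86) or 3 (-1.71), and Mrpl50 did not pass without sufficient replicate 2 (-1.94) or 3 (-1.88) or deficient replicate 2 (-1.28).

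Mrpl32, whose precursor is cut by the m-AAA protease before it joins the large subunit, measured 154, 171 and 151 FPKM in sufficient and 103, 28.7 and 63.0 in deficient BMPC. Its change was -1.45 (SE 0.356, adjusted p = 0.0291). Mrps16, of the bacterial S16 family, measured 306, 360 and 253 FPKM in sufficient and 173, 76.9 and 181 in deficient BMPC, a change of -1.17 (SE 0.284, adjusted p = 0.0277). Mrps7 measured 53.0, 60.6 and 76.2 FPKM in sufficient and 22.2, 28.4 and 37.7 in deficient BMPC, a change of -1.09 (SE 0.261, adjusted p = 0.0251), and did not pass without sufficient replicate 3 (-0.95), without deficient replicate 1 (-0.91) or with libraries scaled by the median of ratios (-0.92, adjusted p = 0.0555). Without BMPC deficient replicate 2, Mrpl32 had a change of -0.97 and Mrps16 of -0.77, and without sufficient replicate 2 they had changes of -1.40 and -1.05; none of these passed, nor did Mrps16 with libraries scaled by the median of ratios (-0.99, adjusted p = 0.0502). In these genes too every deficient library lay below every sufficient one. Mrpl18 and Mrps21, the most abundant members, had adjusted p of 0.00512 and 0.012 with changes of -0.98 and -0.80, which fell short of 2-fold.

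**Figure D4:**
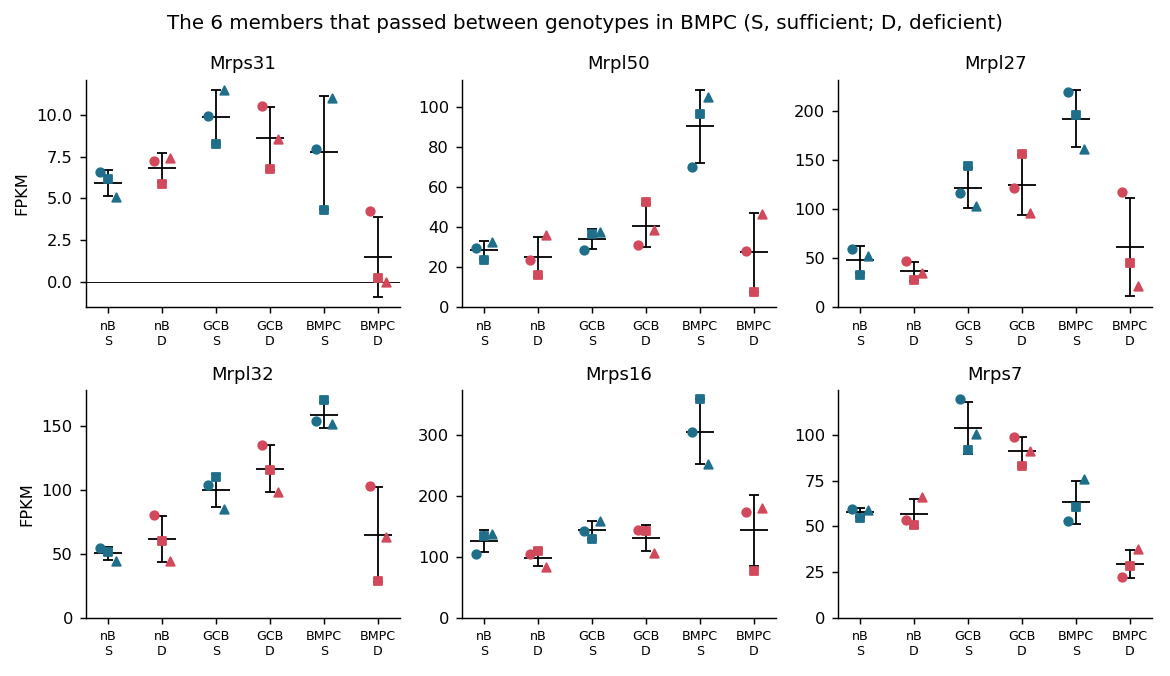
FPKM per library of the 6 members that passed between genotypes in BMPC, shown in every cell type and genotype; points are libraries shaped by replicate number, with the mean and SD of 3. In BMPC the 3 deficient libraries lie below the 3 sufficient ones in each panel, and in nB and GCB the genotypes lie close together or overlap.

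With the BMPC libraries fitted alone, 0 members passed (15 at an unadjusted p under 0.05), and voom on the recovered reads (14) and a fit with a quality weight for each library (13) called 0 as well, against 26 members lower at an unadjusted p under 0.05 in the fit reported, where 13.3% of all genes were. The fit reported pooled 1 spread per gene over all 6 groups. Within groups, the median SD of members on the log2 scale was 0.485 and 0.690 in sufficient and deficient BMPC. It was 0.192 to 0.341 in the nB and GCB groups. The part of this pooling in the loss of the calls was not tested. Several measures moved with genotype in BMPC, and their part in the result was not tested. The summed FPKM of 5 erythroid genes ranged from 1473 to 2893 in sufficient and from 182 to 1157 in deficient BMPC, that of 8 plasma cell genes from 19040 to 29690 and from 34160 to 51660, and that of 6 macrophage genes from 60.0 to 87.7 and from 98.4 to 227. All 5 erythroid genes were detected in each BMPC genotype, whereas 2 of the 6 macrophage genes were at 0 in all BMPC libraries. Much of the macrophage sum was Cd68, which alone ranged from 40.5 to 87.6 FPKM in sufficient and from 98.4 to 158 in deficient BMPC. The deficient libraries were also shallower for the most part. With reads thinned to the shallowest library the count was again 6. Thinning evens only the number of reads, and the part of library quality was not tested.

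Both subunits held members that rose in GCB and in BMPC. The median change in GCB was 0.81 for Mrpl and 0.54 for Mrps genes, with 11 and 4 passed as higher. In BMPC against nB the medians were 0.77 and 0.15 (0.99 and 0.71 in sufficient libraries, 0.44 and -0.10 in deficient ones, where 13 of 29 Mrps genes were above 0), with 19 Mrpl genes higher and 2 lower and 6 Mrps genes higher and 3 lower. Against GCB they were -0.08 and -0.50. Between genotypes in BMPC they were -0.48 and -0.71, with 3 lower in each. Among the 44 members with bacterial relatives, 10 passed as higher in GCB and 16 as higher and 2 as lower in BMPC; among 27 particular to mitochondria the counts were 3, 6 and 3. No difference between these groups of members was tested.

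Members with a known place on the ribosome gave differing values. The stalk that recruits translation factors is built from Mrpl10, Mrpl11 and Mrpl12. Mrpl12, which is also known to bind the mitochondrial RNA polymerase, rose in GCB (1.10, adjusted p = 0.0256) and in BMPC (1.00, adjusted p = 0.0213). Its call was lost in 9 of 26 alternatives in GCB, among them those without nB sufficient replicate 2 (0.90), nB deficient replicate 3 (1.02), or replicate 1 or 2 of sufficient (1.07 and 1.08) or deficient GCB (1.05 and 1.08). In BMPC the call of Mrpl12 was lost in 9 of 27, among them those without the same nB libraries (0.81 and 0.93), without BMPC sufficient replicate 2 (0.91) or 3 (0.93) or without deficient replicate 1 (0.77) or 3 (0.86). The change of Mrpl12 in BMPC was 1.75 in sufficient libraries alone (adjusted p = 0.0094). In deficient libraries alone it was 0.25, the lowest of the alternatives, and did not pass. Mrpl11 had changes of 0.33 and 0.59 that did not pass, and Mrpl10 had changes of 0.49 and -0.79 that did not pass. Mrps12, of the decoding centre, measured 55.4 ± 12.4 FPKM in nB, 53.5 ± 15.1 in GCB and 77.6 ± 29.6 in BMPC (SD, n = 6), and did not pass against nB in GCB (adjusted p = 0.884) or BMPC (adjusted p = 0.123). Mrpl45, which anchors the ribosome to the inner membrane, had a change of 0.86 in GCB (adjusted p = 0.0409), below 2-fold, and of 0.28 in BMPC (adjusted p = 0.435).

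Other genes of the same pathway were set beside the members. Of 74 nuclear genes for subunits of oxidative phosphorylation, 20 rose and 0 fell in GCB (median 0.79), and 51 rose and 3 fell in BMPC against nB (median 1.18). Of 81 cytosolic ribosomal protein genes, 1 rose in GCB (median 0.10) and 21 in BMPC (median 0.81), and none of them fell in either. Their summed FPKM was 1.06-fold of nB in GCB, against 1.71-fold for the mitochondrial ribosomal proteins. Of 6 further proteins of the mitochondrial ribosome, Chchd1 (1.15, adjusted p = 0.00014) and Ict1 (1.08, adjusted p = 0.00151), which releases stalled peptides, rose in BMPC and 0 rose in GCB.

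Genes for factors that assemble or serve the mitochondrial ribosome included many that fell in BMPC. None of 11 translation factor genes, 18 assembly genes and 17 mitochondrial tRNA synthetase genes passed in either direction in GCB, with medians of 0.21, -0.11 and -0.26. In BMPC against nB, 5, 8 and 10 of them fell and 0 rose, with medians of -1.27, -0.83 and -1.39. Of 11 genes for mitochondrial RNA synthesis, 4 fell and 1 rose, the elongation factor Tefm at 1.52 (adjusted p = 0.0033), with a median of -1.30. In sufficient libraries alone 1 translation factor, 4 assembly and 6 tRNA synthetase genes fell (medians of -0.66, -0.59 and -1.01), and 1 assembly gene rose. In deficient libraries alone 6, 6 and 9 fell and 0 rose, with medians of -2.11, -1.05 and -1.80. The translation factor sum was 1.08-fold of nB in sufficient and 0.385-fold in deficient BMPC. Over the mean of both genotypes, the elongation factor gene Tufm was lower by 1.27 in BMPC than in nB (adjusted p = 0.0223). It was lower by 3.42 in deficient than in sufficient BMPC (adjusted p = 0.00494), so the averaged change does not describe sufficient plasma cells alone. These counts stand beside the 39.3% of all genes that passed as lower in BMPC. Among sufficient libraries alone 27.6% of all genes passed as lower and 9.74% as higher, and among deficient ones 30.6% and 6.85%. Nothing particular to the lists was tested.

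**Figure D5:**
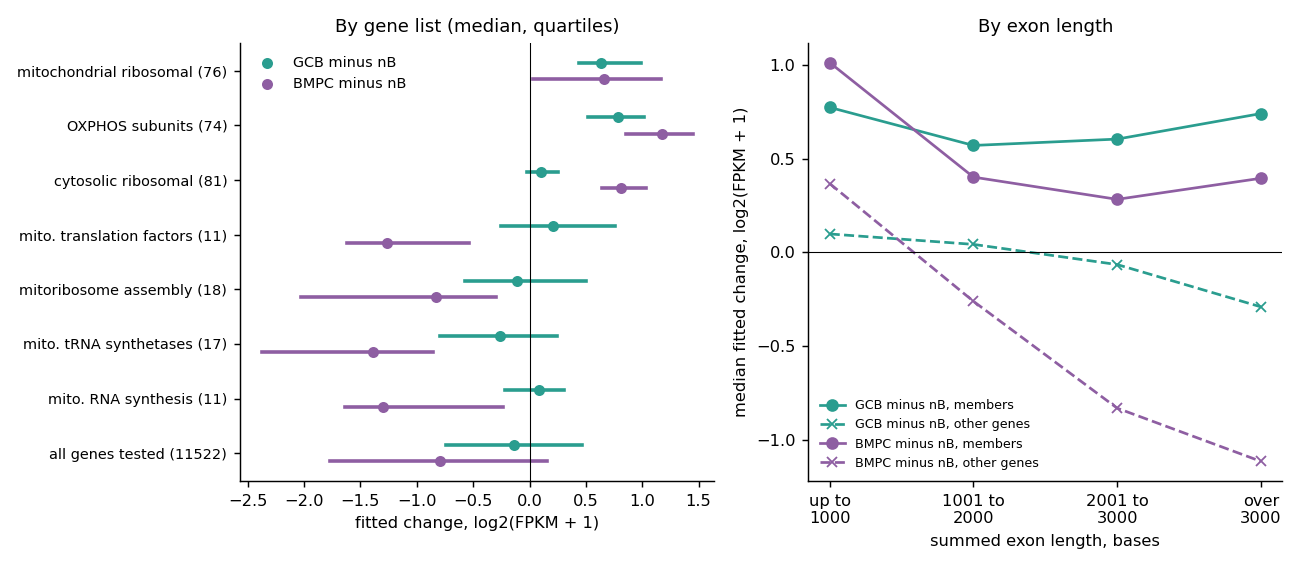
Left, median and quartiles of the fitted change on the log2(FPKM + 1) scale over nB for the members, 6 other gene lists and all genes tested, with the number of genes in brackets. Right, median change of members (circles) and other genes (crosses) in 4 classes of summed exon length; members lie above other genes in each class in both comparisons, and the other genes fall with length in BMPC.

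Members were short genes, and change in BMPC moved with exon length over all genes. The summed exon length had a median of 1191 bases among members (435 to 7017) and of 3102.5 among all genes tested. Among genes of up to 1000 bases, the median change in BMPC over nB was 1.01 for 24 members and 0.37 for 924 other genes, and among genes over 3000 bases it was 0.40 for 12 members and -1.12 for 5979 other genes. In GCB the same values were 0.77 and 0.10 for the short genes and 0.74 and -0.29 for the long ones. Between genotypes in BMPC they were -0.60 and -0.30, and -0.81 and -0.00. The member median was further from 0 than that of the other genes in these GCB and genotype classes, and the part of length in the change of single members was not tested.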

How the data were processed

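RNA-seq was made from 5000 sorted cells per library (13 cycles of cDNA and 12 of library amplification). According to the study's methods, the authors mapped reads with TopHat to mm9, kept unique hits, counted them over the exons of UCSC known genes and tested them with edgeR 3.12.1, with no further account of how FPKM were computed; the submitters' processing notes also name Picard and R 3.2.2. The strand setting is not given in the sources used here, so overlapping and antisense genes cannot be told apart. The deposited FPKM values were whole reads scaled to exon length and library total for 100% of values (tolerance 0.01), and their denominator was the reads on the table's own genes, which include few immunoglobulin genes. The authors' own comparison columns (fold changes, p-values and calls) were not used.

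FPKM above 1 in at least 2 libraries was required. Log2(FPKM + 1) was fitted with 1 mean per group over 18 libraries by limma 3.58.1 (R 4.3.3) with a mean-variance trend, and p-values were adjusted over 11522 genes. Cell types were compared over the mean of both genotypes. P-values rest on 1 spread between libraries per gene, pooled over all 6 groups of 3. The median SD of members within a group, on the log2 scale, was 0.485 in sufficient and 0.690 in deficient BMPC. It was 0.192 to 0.341 in the nB and GCB groups. The pooled spread can thus understate that of BMPC. Alternatives covered the added constant, filters, scaling, weights, voom on recovered reads, thinning, sex, thresholds and single libraries. The fit was checked on simulated data for GCB minus nB only, so this check does not cover the BMPC comparisons. Members, lists and motifs were chosen with earlier results of these data known. Members described singly were those with the largest rises and falls among members that passed each comparison, and some other passing members. Where none passed between genotypes or in an interaction, members with the smallest p were taken. Members with the highest and lowest levels, the steadiest member and members of known role were added.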

Additional observations from a re-analysis of the deposited data

How the results depend on the processing

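Of the counts and medians under the alternatives, 313 stayed within 1.5 times the reported count or within the spread, and 21 moved. With no minimum change, 31 members passed between GCB and nB and 26 between BMPC and GCB. Dnmt3-sufficient libraries alone gave medians of 0.81 (GCB minus nB), 0.89 (BMPC minus nB) and 0.27 (BMPC minus GCB) and 5 members passing between BMPC and GCB. Dnmt3-deficient libraries alone gave 18 members and a median of 0.35 between BMPC and nB, and a median of -0.23 between BMPC and GCB, opposite in sign to that of the sufficient libraries. Between genotypes in BMPC, 0 members passed by voom (14 at an unadjusted p under 0.05), with only those groups fitted (15), where each library was weighted by its quality (13) and at an adjusted p of 0.01 (26). The cause was not tested. The alternatives without the 2 shallowest libraries (both Dnmt3-deficient BMPC) and without Jchain reads were chosen after seeing the data. The former leaves 1 Dnmt3-deficient BMPC library, so its counts for the interactions of genotype with BMPC minus nB and BMPC minus GCB are not given.

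Leaving out each library in turn gave 13 to 20 members between GCB and nB, 26 to 34 between BMPC and nB, 8 to 12 between BMPC and GCB, and 6 to 10 between genotypes in BMPC, where 10 passed without BMPC deficient replicate 1 or 3. The interactions gave 0 to 3 for BMPC minus nB (3 without BMPC deficient replicate 1, 1 without BMPC deficient replicate 3 or sufficient replicate 3) and 0 to 3 for BMPC minus GCB (3 without BMPC deficient replicate 1). The GCB genotype median was -0.2625 to -0.0828, the latter without GCB deficient replicate 3, and the BMPC genotype median -0.64 to -0.38. The BMPC minus GCB median was -0.15 to 0.08.

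For the members described singly, 1044 values stayed on their side of the threshold, 117 lost the call and 4, all of them interactions of Mrpl32, gained it, with none changing direction. Of the 6 genotype calls in BMPC, Mrps7 was lost in 9 of 19 alternatives, Mrpl50, Mrps16 and Mrps31 each in 8, Mrpl32 in 6 and Mrpl27 in 4.

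By their titles, GCB libraries of the same replicate number form pairs of a sufficient and a deficient library of the same sex. In their deviations from group means, same-numbered libraries correlated at 0.0257, -1e-04 and -0.0171. These values show no shared shift in expression and cannot show whether the libraries were paired. With the replicate block in GCB, 0 members passed and the median was -0.21, as without it.

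Depth limited the BMPC comparisons most: of 456 member values 35 rested on 3 reads or fewer, against 4 in nB and 3 in GCB.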
